A study of Mus musculus with 8 samples.

Results

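The constant differences between B73 and B87, 2 mouse pancreatic ductal adenocarcinoma (PDAC) lines, were described by setting the 4 RNA-seq libraries of B87 against the 4 libraries of B73, each matched to the library of the other line grown under the same condition. All 8 of the 8 libraries entered the comparison. Each line was derived from a primary pancreatic tumor of a KC-shSmad4 mouse, in which Ptf1a-Cre, active in pancreatic progenitors, switches on conditional alleles that include a Rosa26 allele carrying LSL-rtTA3-IRES-mKate2, and in which the Col1a1 locus holds a doxycycline (Dox)-inducible, GFP-linked short hairpin RNA against Smad4. These alleles were present in both lines. The ES cells behind the model were male and of a mixed C57BL/6J and 129 background. The study reports that its cell lines were derived from tumors of male mice. On Dox the cells were Smad4 off. After 5 days without Dox they were Smad4 on. Both states were then treated for 24 h with 100 pM TGFβ1 or with 2.5 µM SB505124, which blocks the kinase of the type I TGFβ receptor. Each line stands for 1 tumor of 1 mouse, cultured on collagen with Dox and passaged repeatedly to remove nontumor cells. The model has 2 independent Smad4 hairpins, and which line carries which is not given in the sources used here. Line, mouse, hairpin and culture history therefore cannot be told apart. The 4 libraries of a line are the same line under 4 conditions and not independent cultures, so p-values measure the spread between matched libraries.

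PDAC cells range between an epithelial state, with keratin filaments, E-cadherin and tight junctions, and a mesenchymal state, with secreted collagens and the transcription factors of the epithelial-to-mesenchymal transition (EMT). Tumors of the classical subtype also express gut and gastric differentiation genes, whereas basal-like tumors express squamous genes. TGFβ signaling through Smad4 is a known driver of EMT in pancreatic tumor cells, and the commonly lost tumor suppressors of the disease include Cdkn2a, Trp53 and Smad4.

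Levels are given as CPM, counts scaled to a common library total with a correction for library composition, and always in the same order of libraries: SB505124 with Smad4 off, SB505124 with Smad4 on, TGFβ1 with Smad4 off and TGFβ1 with Smad4 on. Differences are log2 fold changes of B87 over B73 with their standard error (SE), fitted across the 4 conditions, and adjusted p-values are from edgeR's quasi-likelihood test with Benjamini-Hochberg correction over 14301 tested genes. A gene was called when its adjusted p was under 0.05 and its difference exceeded 2-fold. Library totals ran from 18389235 to 23440550 counts, and 3 counts, the smallest level taken as detectable, corresponded to 0.125 to 0.162 CPM. These floors and the intervals of ratios of small counts cover counting error only. Mitochondrially encoded transcripts took 1.32% to 2.07% of the counts of a library.

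Smad4, the gene targeted by the hairpin, was read first. Its levels were 33.7, 97.4, 34.7 and 117 CPM in B73 and 34.9, 113.8, 35.5 and 115.5 CPM in B87. In both lines the Smad4-on libraries stood above the Smad4-off libraries, and the ranges of the lines overlapped. The fitted difference between lines was 0.07 on the log2 scale (SE 0.06, adjusted p = 0.486) and was not called.

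The lines differed in 553 genes called higher in B87 (3.87% of those tested) and 644 called lower (4.5%), 1197 in all (8.37%). Of the called genes, 1128 (94.2%) had a difference of the same sign in all 4 conditions, compared with 38.7% of all tested genes. The call and this count draw on the same libraries, so the share is a description. A difference of more than 2-fold in every condition was held by 300 higher genes (2.1% of those tested) and 329 lower genes (2.3%), together 52.5% of the called genes. In 227 of these 300 and 241 of these 329 the libraries of the lines did not overlap at all, so that the lowest library of one line stood above the highest of the other. Over all tested genes, called or not, B87 lay wholly above B73 in 839 (5.87%) and wholly below in 751 (5.25%). Differences exceeded 4-fold in 243 higher and 383 lower genes. Fitting the lines without matching by condition reduced the calls to 218 higher and 209 lower genes, and the held genes to 180 each way. Besides those said below to need the matching, calls of Marveld2, Marveld3, Tjp3, Cgn, Elf3, Lamb3, Snai1, Acta2, Lox, Timp3, Vcam1, Bgn, Kdr, Ifit1, Slc7a11, Gsta4, Peg10, Ppp1r9a, Hacd4, Hoxa3, Hoxa10, Hoxa13, Hoxb4, Hoxb5, Hoxb7, Gbp2, Isg15, Oasl2, Ddx58, Cela1, Cldn4, Cldn23, Col4a3, Col4a4, Col5a1, Col6a1, Col6a2, Col15a1 and Col18a1 were lost in that fit.

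**Figure D1:**
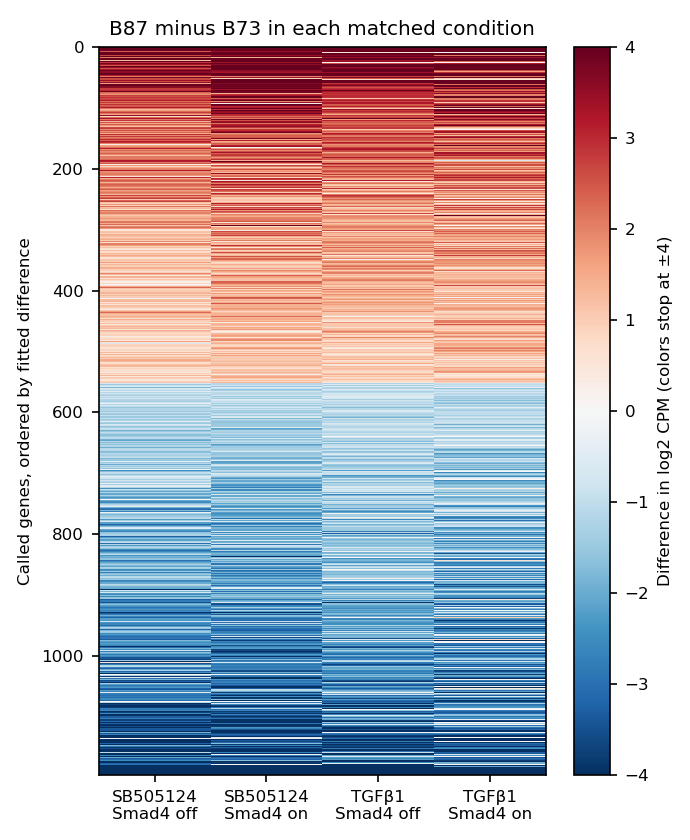
Heat map of the 1197 called genes (rows) in the 4 matched conditions (columns), colored by the log2 CPM difference of B87 minus B73 with colors stopping at 4 either way. Most rows keep 1 color across the columns, as 1128 of the 1197 genes have the same sign in all 4 conditions.

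Most genes of epithelial architecture were lower in B87. Of 30 genes of an epithelial list, 23 were tested, of which 15 were called lower, 10 of them more than 2-fold in every condition, and none was called higher. The median log2 difference of the 23 was -1.94, against -0.00925 over all tested genes, and was -1.12, -2.34, -1.39 and -2.39 in the 4 conditions. The 7 members left untested for low counts were Rab25, Cldn7, Grhl2, Ovol1, Prss8, Ovol2 and Esrp1. In wider families some calls went the other way. Of 11 tested keratins 5 were called lower and 1, Krt13, higher. Of 9 tested cadherins 2 were called lower and 1, Cdh3, higher. Both higher calls were lost in the edgeR fit without matching (Krt13 1.08, adjusted p = 0.828, Cdh3 2.77, adjusted p = 0.069). Over all tested genes 4.5% were called lower and 3.87% higher. In bulk samples fewer cells of a type and less RNA per cell cannot be told apart, and this holds for every difference given here.

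Krt7, a keratin of simple ductal epithelium (chr15:101411043-101430313 on GRCm38), had levels of 541, 649, 577 and 474 CPM in B73 and 23.5, 12.6, 28.7 and 14.9 CPM in B87. No library of either line came near the other line. The fitted difference was -4.87 (SE 0.23, adjusted p = 4.88e-05), or 29.1-fold lower in B87. Krt8, the partner keratin of Krt18 in simple epithelia, stood at 1141, 1944, 1233 and 2410 CPM in B73 and 391, 236, 279.9 and 242 CPM in B87, again without overlap, with a difference of -2.51 (SE 0.29, adjusted p = 0.0017). Near-identical sequence in other genes covers 22% of the 75-base stretches of Krt8, so part of its level is uncertain. Krt18 was lower by a smaller margin (-1.10, SE 0.21, adjusted p = 0.0118) and fell below the 2-fold rule when either Smad4-on condition was left out (-0.9997 without SB505124, -0.899 without TGFβ1). Krt19, another ductal keratin, was at 849.8, 1575, 436 and 299 CPM in B73 and 626, 729, 162 and 153 CPM in B87, a difference of -0.99 (adjusted p = 0.0049) that missed the 2-fold rule and passed it at -1.17 without the SB505124 Smad4-off libraries.

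Junction genes of the same list were called lower as well. Ocln encodes occludin, a membrane protein of tight junctions, and was at 10.9, 21, 7.54 and 6.07 CPM in B73 and 0.571, 0.666, 0.349 and 0.204 CPM in B87. The lines were fully separated, with a difference of -4.62 (SE 0.20, adjusted p = 3.18e-05). Cdh1, encoding E-cadherin, was at 325, 469, 186 and 109 CPM in B73 and 149, 80.5, 64 and 11.5 CPM in B87. Here the ranges overlapped between conditions, but B87 was lower in each of the 4 matched pairs (-2.06, SE 0.33, adjusted p = 0.00613), and the call was lost without matching. Cldn3, a claudin, was at 1.05, 1.41, 0.643 and 0.51 CPM in B73 and at 0 counts in all 4 B87 libraries, at least 25.5-fold lower. Lsr, encoding a protein of tricellular junctions, was at 30.7, 56.3, 29.8 and 39.9 CPM in B73 and 9.62, 4.74, 9.17 and 3.72 CPM in B87 (-2.54, SE 0.36, adjusted p = 0.00405). Among other junction genes, Marveld2 (-2.19), Marveld3 (-2.31), Tjp3 (-2.07) and Cgn (-1.07) were called lower, Cgn only while both Smad4-on conditions were kept (-0.952 and -0.948 without 1 of them). Elf3 (-1.94), an epithelial ETS factor, lost its call without the SB505124 Smad4-on libraries (-1.77, adjusted p = 0.0565). Epcam, an epithelial adhesion molecule, was low in both lines, at 0.399, 2.11, 0.343 and 1.53 CPM in B73 and 0.176, 0.208, 0.548 and 0.153 CPM in B87, with a difference of -1.84 (SE 0.67, adjusted p = 0.11) that was not called. It was called without the TGFβ1 Smad4-off libraries (-2.76, adjusted p = 0.0208) and with no filter on low counts (-1.84, adjusted p = 0.00754).

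**Figure D2:**
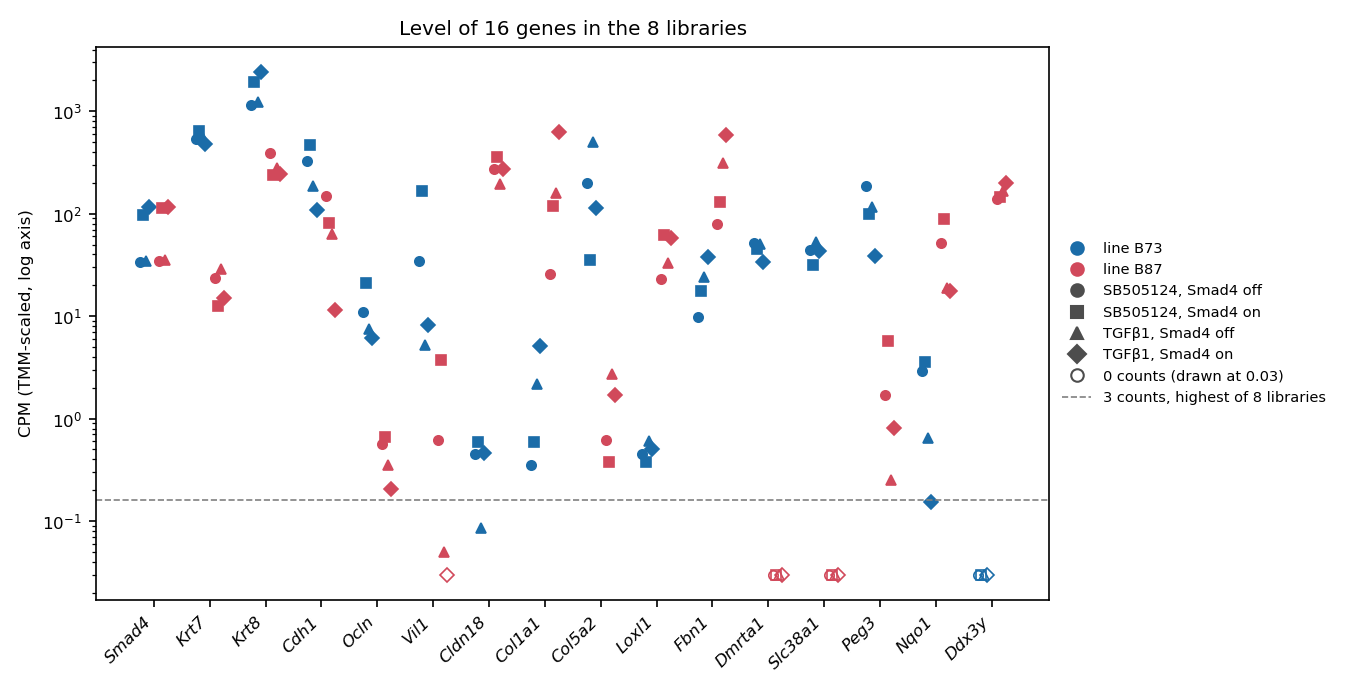
Level of 16 genes in each of the 8 libraries, in CPM on a log axis, with B73 and B87 in different colors and the 4 conditions in order. Libraries at 0 counts are drawn at 0.03 CPM and a dashed line marks 3 counts, and Krt7, Ocln, Cldn18 and Col1a1 show lines that do not overlap in any condition.

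Snail and Zeb repressors bind E-boxes, and the letters of such boxes were looked up in RefSeq promoter windows (GRCm38.p6, the 250 bases before each annotated start). The motif was CAGGTG or CACCTG, which are the same site read from either strand. It was present in 1886 of the 10260 tested genes with a window (18.4%), in 84 of 398 genes called higher (21.1%), in 103 of 411 called lower (25.1%) and in 11 of 16 tested epithelial genes (68.8%). Of the epithelial genes called lower, 8 of the 12 with a window held it (66.7%), a share no larger than that of the list. Over all 32851 windows the share was 17.2%. Whether Snail or Zeb factors act on these genes was not tested. A match is a description of letters and not a binding site. Sequences were taken for 7 junction genes called lower in B87, and the 5 genes with a window that overlaps no annotated exon are shown, which leaves out Cgn and Marveld2. Lsr holds 4 copies, Tjp3 and Cldn4 hold 1 each, and Cldn3 and Ocln hold none. A second window of Ocln and of Tjp3, not shown because each overlaps an exon, holds 2 and 1. The windows shown lie at chr7:30973470-30973719 (minus strand, Lsr), chr10:81291582-81291831 (minus strand, Tjp3), chr5:134946935-134947184 (minus strand, Cldn4), chr5:134985964-134986213 (plus strand, Cldn3) and chr13:100552719-100552968 (minus strand, Ocln), written 5′ to 3′ with the motif in capitals.
Lsr: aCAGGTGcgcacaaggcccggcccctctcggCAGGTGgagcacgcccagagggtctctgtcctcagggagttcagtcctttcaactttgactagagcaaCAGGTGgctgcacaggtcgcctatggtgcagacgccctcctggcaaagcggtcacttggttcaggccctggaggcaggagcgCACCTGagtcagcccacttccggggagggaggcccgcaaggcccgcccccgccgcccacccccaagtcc
Tjp3: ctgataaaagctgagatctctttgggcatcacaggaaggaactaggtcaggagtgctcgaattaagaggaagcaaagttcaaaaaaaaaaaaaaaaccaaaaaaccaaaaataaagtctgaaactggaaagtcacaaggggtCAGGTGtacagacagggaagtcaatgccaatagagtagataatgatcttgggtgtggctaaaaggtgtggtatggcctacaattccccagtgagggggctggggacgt
Cldn4: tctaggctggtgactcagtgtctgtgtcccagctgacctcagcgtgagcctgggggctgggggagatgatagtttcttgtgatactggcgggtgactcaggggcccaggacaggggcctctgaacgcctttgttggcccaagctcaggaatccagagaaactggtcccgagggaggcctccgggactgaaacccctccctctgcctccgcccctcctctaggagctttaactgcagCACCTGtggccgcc
Cldn3: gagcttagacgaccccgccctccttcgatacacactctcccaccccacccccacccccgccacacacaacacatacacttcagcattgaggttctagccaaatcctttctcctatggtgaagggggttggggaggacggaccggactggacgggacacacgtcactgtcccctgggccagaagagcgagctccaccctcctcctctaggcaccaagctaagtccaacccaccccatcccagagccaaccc
Ocln: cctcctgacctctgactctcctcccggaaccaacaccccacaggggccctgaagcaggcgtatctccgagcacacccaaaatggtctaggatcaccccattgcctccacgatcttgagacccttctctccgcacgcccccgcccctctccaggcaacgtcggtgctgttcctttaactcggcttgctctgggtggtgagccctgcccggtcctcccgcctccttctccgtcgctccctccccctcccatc

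Cldn4 itself was at 0 counts under SB505124 in both lines, and stood at 2.96 and 46.2 CPM in B73 and 0.199 and 3.26 CPM in B87 under TGFβ1. The fitted difference of -3.81 (SE 0.25, adjusted p = 0.000914) therefore comes from the TGFβ1 libraries, and DESeq2 did not call it (adjusted p = 0.421).

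Of 23 tested integrins 3 were called lower and 2 higher (median -0.0291), and of 8 tested laminins 2 lower and 1 higher (median -0.27). Over all tested genes 4.5% were called lower and 3.87% higher. Calls in these 2 families thus went both ways. Itgb4, the β4 integrin of hemidesmosomes, was at 105, 298, 72.1 and 285 CPM in B73 and 36.5, 50.2, 25.3 and 33.1 CPM in B87, without overlap (-2.19, SE 0.28, adjusted p = 0.0024). Lamb3, a chain of the laminin that Itgb4 binds, was at 8.88, 58.4, 71.6 and 340.5 CPM in B73 and 1.67, 7.36, 14.5 and 45.9 CPM in B87 (-2.69, SE 0.13, adjusted p = 5.36e-05), with ranges that overlapped across conditions. Tns4, an adaptor at integrin adhesions, was at 275, 376, 372 and 285 CPM in B73 and 46.4, 23.7, 65.9 and 32.6 CPM in B87, with no overlap (-3.03, SE 0.25, adjusted p = 0.000399). Wfdc2, a secreted protease inhibitor of glandular epithelia, was at 292, 276, 176 and 181 CPM in B73 and 49.2, 35.9, 32.9 and 25.2 CPM in B87, also without overlap (-2.69, SE 0.10, adjusted p = 2.11e-05).

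Genes of gut differentiation followed the same direction, with 1 large exception. Of 30 genes of a classical PDAC list, 22 were tested, 12 were called lower and 2 higher in B87, with a median of -1.49. Vil1, encoding the brush-border protein villin, was at 34.2, 167, 5.23 and 8.27 CPM in B73 and 0.615, 3.74, 0.0498 and 0 CPM in B87. Every B73 library exceeded every B87 library, and both lines were lower under TGFβ1 (-5.71, SE 0.24, adjusted p = 3.05e-05). Lgals4, an intestinal galectin, was at 389.7, 961, 159 and 103 CPM in B73 and 40.2, 64.5, 10.3 and 2.75 CPM in B87 (-3.95, SE 0.26, adjusted p = 0.000182). Cdh17, the liver-intestine cadherin, was at 218, 714, 182 and 515 CPM in B73 and 29.9, 69.1, 16.7 and 27.9 CPM in B87 (-3.47, SE 0.21, adjusted p = 0.000115), and neither gene overlapped between lines. Krt20, an intestinal keratin, was at 13.9, 25, 17.6 and 28.6 CPM in B73 and 1.41, 0.25, 2.29 and 0.867 CPM in B87 (-4.17, SE 0.50, adjusted p = 0.00194). The mucin Muc1 (-2.62, SE 0.26) and the trefoil factor Tff3 (-3.84, SE 0.44) were called lower, and lost the call without matching, as did Vil1 and Lgals4.

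An exception was Cldn18 (chr9:99689461-99717267), a claudin of stomach and lung epithelium that marks gastric differentiation in pancreatic tumors. It was at 0.449, 0.594, 0.0857 and 0.459 CPM in B73 and 276, 357, 196 and 276 CPM in B87. The B73 levels lay near the 3-count floor, and the difference of 9.46 (SE 0.16, adjusted p = 1.23e-06), or 706-fold, was in the direction opposite to the claudins called lower. Cldn3, Cldn4, Cldn6 and Cldn23 (-1.64) of the 8 tested were called lower, the last not in DESeq2 (adjusted p = 0.285) and not without either TGFβ1 Smad4-on library (-1.47). Gata6, a transcription factor of the classical subtype, was at 14.9, 19.9, 11.4 and 11 CPM in B73 and 37.6, 34.7, 27.6 and 22.5 CPM in B87, without overlap (1.11, SE 0.11, adjusted p = 0.000912).

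Some factors that mark pancreatic identity were not called, though their list held calls more often than all tested genes. Pdx1, the master regulator of the pancreatic bud, was at 78.5, 102.8, 42 and 34.4 CPM in B73 and 79.9, 125, 33 and 35.8 CPM in B87 (0.01, SE 0.10, adjusted p = 0.957). The ductal factor Sox9 (-0.35, SE 0.23, adjusted p = 0.362), and the endoderm factors Foxa2 (0.24, SE 0.08, adjusted p = 0.0894) and Hnf4a (-0.41, SE 0.20, adjusted p = 0.215), did not pass the test either. Of 34 identity factors, 20 were tested, of which 2 were called higher and 5 lower, with a median of -0.0567. This share of calls was above the 8.37% of all tested genes called either way. Sox2, a factor of foregut and stem cells, was at 3.04, 0.973, 2.4 and 1.23 CPM in B73 and at 0 counts in every B87 library, at least 56.3-fold lower. Osr1, expressed in foregut and intermediate mesoderm, stood the other way, at 1.45, 2.7, 1.67 and 1.33 CPM in B73 and 22.4, 42.2, 17.2 and 15.5 CPM in B87 (3.71, SE 0.15, adjusted p = 2.5e-05).

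HOX genes, which record position along the body axis, differed by cluster. Of 39 HOX genes 15 were tested, of which 9 were called lower and 2 higher, with a median of -1.97 and low levels throughout. In the Hoxb cluster the 6 neighboring tested genes Hoxb8, Hoxb7, Hoxb6, Hoxb5, Hoxb4 and Hoxb3 were all called lower (log2 differences of -4.61 to -2.34). Hoxb6 was at 2.55, 3.35, 2.48 and 2.65 CPM in B73 and 0.351, 0.125, 0.697 and 0.153 CPM in B87, without overlap (-3.10, SE 0.44, adjusted p = 0.00403). Hoxb3 had 35 counts in all over the B73 libraries and 1 in B87, a ratio of 37.2 (95% interval 6.25 to 1510). Calls of the other members hung on few counts. Hoxb4, Hoxb5 and Hoxb7 lost theirs when 1 of several libraries was left out (highest adjusted p = 0.0842, 0.162 and 0.0904), and Hoxb8 when the B73 TGFβ1 Smad4-on library was (-3.61). In the Hoxa cluster the posterior members Hoxa10 (-1.46, SE 0.29) and Hoxa13 (-1.97, SE 0.36) were lower, and lost the call without the SB505124 Smad4-on libraries (-1.29 and -1.52). Hoxa3 was higher in B87 (2.03, SE 0.41) and lost the call there as well (1.78). In the Hoxd cluster Hoxd8 had 68 counts in B73 and 1 in B87, a ratio of 72.2 (95% interval 12.5 to 2890).

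Mesenchymal genes gave calls in both directions. Of 30 genes of a mesenchymal and EMT list, 27 were tested, 10 were called higher and 3 lower, with a median of 0.217. The general markers were not called. Vim, encoding vimentin, was at 3374, 4006, 3896 and 5319 CPM in B73 and 3124, 3925, 3198 and 4870 CPM in B87 (-0.14, SE 0.07, adjusted p = 0.226). The EMT repressors Zeb1 (0.04, SE 0.06, adjusted p = 0.686) and Zeb2 (0.22, SE 0.13, adjusted p = 0.3), N-cadherin Cdh2 (0.00, SE 0.06, adjusted p = 0.987) and the receptor Axl (-0.09, SE 0.06, adjusted p = 0.426) did not pass the test. Snai1, the TGFβ-responsive EMT repressor, was at 0.499, 0.811, 4.03 and 15.1 CPM in B73 and 4.96, 16.7, 14.7 and 41.8 CPM in B87, higher in every matched pair (2.40, SE 0.43, adjusted p = 0.00969). Twist1 (0.79) and Snai2 (-0.45) passed the p threshold (adjusted p = 0.0134 and 0.0415) and not the 2-fold rule. Prrx1, a mesenchymal homeobox factor, was at 18.9, 12.6, 19.9 and 7.6 CPM in B73 and 41.5, 80.1, 32.4 and 42.3 CPM in B87, without overlap (1.72, SE 0.34, adjusted p = 0.014).

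Collagens divided in the same way. Of 44 collagen genes, 26 were tested, 9 were called higher and 7 lower, with a median of 0.845. Col1a1, the α1 chain of type I collagen (chr11:94936224-94953042), was at 0.349, 0.594, 2.19 and 5.1 CPM in B73 and 25.9, 119, 161 and 627 CPM in B87. All B87 libraries lay above all B73 libraries, and in both lines the levels under TGFβ1 exceeded those under SB505124 (6.75, SE 0.19, adjusted p = 1.08e-05, 107.5-fold). The Col1a1 locus carries the inducible hairpin cassette in both lines, and its part in this difference was not tested. Col1a2, whose product joins Col1a1 in the same fibril, was at 1.8, 2.49, 2.01 and 3.01 CPM in B73 and 0.22, 0.0832, 0 and 0.255 CPM in B87, the opposite direction and again without overlap (-4.03, SE 0.47, adjusted p = 0.0017). Col5a2 was at 200.1, 35.1, 497 and 114 CPM in B73 and 0.615, 0.374, 2.74 and 1.68 CPM in B87 (-7.21, SE 0.28, adjusted p = 2.5e-05, 148-fold lower), whereas its partner chain Col5a1 was higher (1.16, SE 0.26, adjusted p = 0.0245), a call lost without either Smad4-on condition (0.917 and 0.957). Basement membrane collagens were also opposed by pair, as the widely expressed Col4a1 (-1.07, SE 0.08) and Col4a2 (-1.13, SE 0.06) were lower and the restricted chains Col4a3 (1.94, SE 0.16) and Col4a4 (1.59, SE 0.22) higher. The type VI chains Col6a1 (2.60, SE 0.37) and Col6a2 (3.56, SE 0.29) and the collagens Col15a1 (3.16, SE 0.45) and Col16a1 (2.48, SE 0.33) were higher, and Col18a1 was lower (-1.41, SE 0.12).

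Outside the collagens, matrix genes with large differences included Fbn1 and Loxl1. Fbn1, encoding fibrillin-1, was at 9.78, 17.5, 24.2 and 38 CPM in B73 and 79.6, 131, 315 and 587 CPM in B87, without overlap (3.43, SE 0.19, adjusted p = 8.68e-05). Loxl1, an elastin cross-linking enzyme, was at 0.449, 0.378, 0.6 and 0.51 CPM in B73 and 23.1, 62, 33.2 and 58 CPM in B87, without overlap (6.41, SE 0.23, adjusted p = 1.98e-05). Lox, the related collagen cross-linking enzyme, was at 0.349, 0.648, 4.07 and 13.7 CPM in B73 and 0, 0.0416, 0.847 and 1.63 CPM in B87 (-2.88, SE 0.33, adjusted p = 0.00167), a direction opposite to Loxl1. Lama4, a laminin chain of vessels and muscle, was at no more than 0.108 CPM in B73 and at 8.65, 29.7, 5.28 and 7.85 CPM in B87 (7.48, SE 0.24, adjusted p = 1.27e-05). Timp3, an inhibitor of matrix metalloproteinases, was at 24.7, 62.3, 40.4 and 284 CPM in B73 and 104, 219.8, 397 and 1671 CPM in B87, with overlap across conditions and the same direction in each (2.44, SE 0.23, adjusted p = 0.000749). Mrc2, an endocytic collagen receptor, was at 0.749, 0.054, 0.214 and 0.051 CPM in B73 and 40.6, 68.3, 31.5 and 29.2 CPM in B87 (7.23, SE 0.41, adjusted p = 0.000104). Cd34, a sialomucin of progenitor and endothelial surfaces, was at 1.25, 0.757, 1.63 and 0.102 CPM in B73 and 241, 178, 209.7 and 64.9 CPM in B87 (7.53, SE 0.19, adjusted p = 5.5e-06). For Mrc2 and Cd34 no B73 library reached a level of any B87 library.

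**Figure D3:**
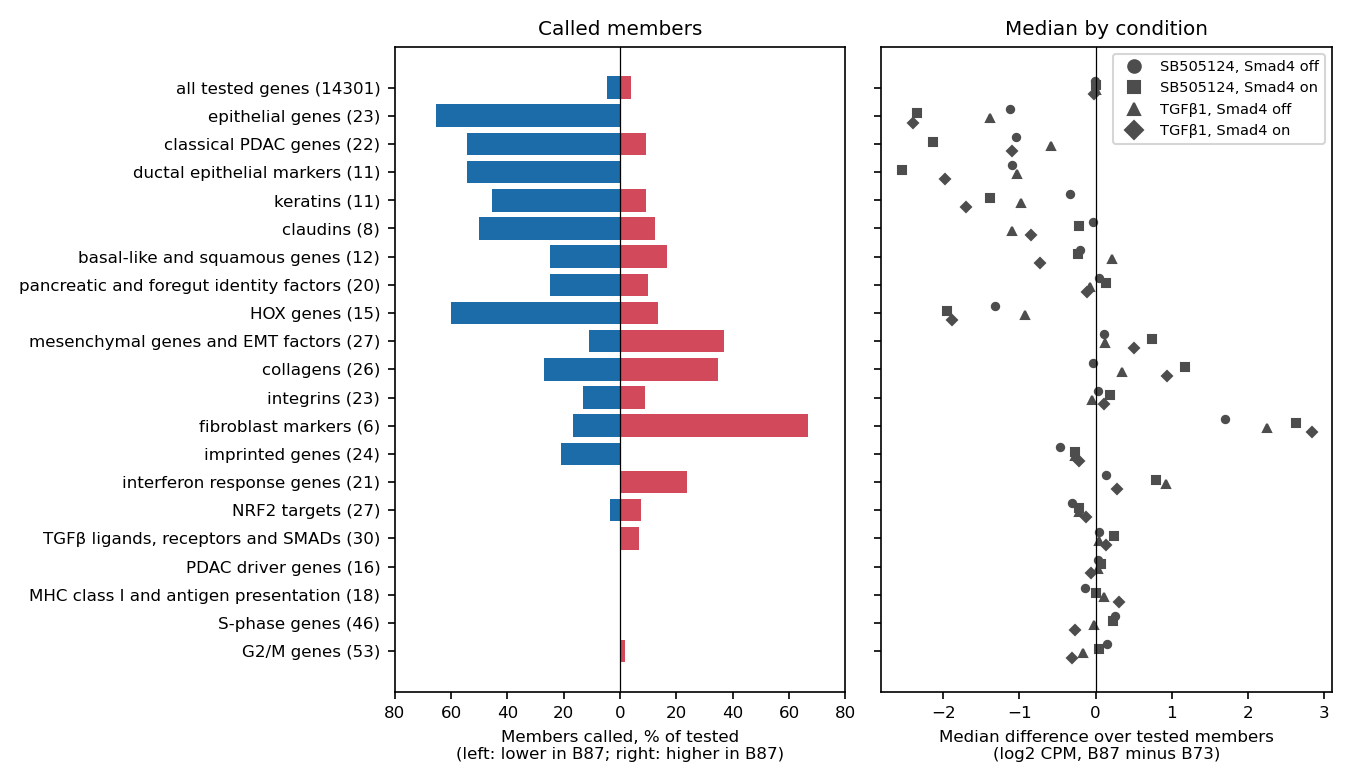
Left, percent of the tested members of each gene list called higher or lower in B87. Right, median log2 difference of each list in the 4 conditions, where epithelial genes lie between -2.39 and -1.12 and fibroblast markers between 1.69 and 2.83, and PDAC driver genes lie near 0.

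Markers of other cell types were read over whole lists. Of 11 fibroblast markers 6 were tested, 4 were called higher (Col1a1, Pdgfrb, Pdgfra and Acta2) and Col1a2 lower, and their summed level was 26 to 205 CPM in B73 and 72.3 to 1369 CPM in B87. The median difference of the 6 was 2.08. Some other members were near 0 in both lines. Lum had 0 counts in all 8 libraries, and Dcn, Thy1 and Postn reached at most 0.149, 0.051 and 0.0832 CPM. Pdgfrb, the β receptor for platelet-derived growth factor, was at 1.25, 0.27, 1.46 and 0 CPM in B73 and 12.8, 27.2, 18.9 and 15.8 CPM in B87 (4.64, SE 0.60, adjusted p = 0.00255). Pdgfra was at 0.899, 0.648, 0.771 and 0.766 CPM in B73 and 5.01, 6.41, 4.68 and 3.52 CPM in B87 (2.63, SE 0.23, adjusted p = 0.000466), and neither receptor overlapped between lines. Of 9 leukocyte markers only Cd68 was tested, and not called (-0.79, SE 0.24, adjusted p = 0.0681), and Ptprc, the common leukocyte marker, reached 0.153 CPM at most. Of 7 endothelial markers 2 were tested and Kdr, the VEGF receptor, was called higher (1.998, SE 0.22), whereas Pecam1 reached 0.214 CPM at most. No islet marker of 10 was tested, and of 11 acinar markers only Cela1 was, called at 1.00 (SE 0.27, adjusted p = 0.0412) and not called when any 1 of the 8 libraries was left out or by DESeq2 (adjusted p = 0.246). The ductal markers held the opposite direction, with 11 of 12 tested, 6 called lower and none higher (median -1.84).

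Secreted factors and surface receptors included differences of presence and absence. Cxcl12, the chemokine that binds Cxcr4, was at 14.9, 48.7, 38.8 and 106 CPM in B73 and at 0 counts in all 4 B87 libraries, at least 1480-fold lower. Inhba, the subunit of activin A, was at 23.1, 35.8, 97 and 524 CPM in B73 and 74.2, 86.8, 388 and 1259 CPM in B87, higher in each condition (1.56, SE 0.13, adjusted p = 0.000449). Of 32 genes for TGFβ ligands, receptors and SMADs, 30 were tested and Inhba and Tgfb2 (1.07, SE 0.17, adjusted p = 0.00686) were the members called, the latter only while the TGFβ1 Smad4-on libraries were kept (0.869 without them). Fgf2, a basic fibroblast growth factor, was at 1.65, 1.24, 4.97 and 19.7 CPM in B73 and 5.32, 12, 44 and 96.7 CPM in B87 (2.62, SE 0.24, adjusted p = 0.000623). Wnt7b, an epithelial WNT ligand, was at 31.1, 7.08, 127 and 107 CPM in B73 and 8.17, 0.25, 42.1 and 25.5 CPM in B87 (-2.08, SE 0.29, adjusted p = 0.00368). The ranges of Inhba, Fgf2 and Wnt7b overlapped across conditions, and their calls were lost without matching. Vcam1, an adhesion molecule for leukocyte integrins, was at 149, 55.7, 57.6 and 10.9 CPM in B73 and 402, 313, 197 and 54.7 CPM in B87 (1.98, SE 0.18, adjusted p = 0.000568), overlapping across conditions in the same way. Itgb7, the β7 integrin known from lymphocytes, was at 52.6, 26.7, 13.7 and 1.94 CPM in B73 and at 0.527, 0.499, 0.0996 and 0.102 CPM in B87 (-6.19, SE 0.27, adjusted p = 3.71e-05).

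Among interferon response genes 21 of 36 were tested and 5 were called higher, with a median of 0.603 over the 21. Of all tested genes 3.87% were called higher. Ifit1, an RNA-binding antiviral protein, was at 0.749, 0.486, 0.557 and 0.204 CPM in B73 and 3.65, 3.7, 2.14 and 0.663 CPM in B87 (2.27, SE 0.26, adjusted p = 0.00164). Of the other 4, Gbp2 (1.66), Isg15 (1.66), Oasl2 (1.33) and Ddx58 (1.01), each lost its call when a single library was left out, the lowest of these values being 1.496 for Gbp2, 1.54 for Isg15, 1.08 for Oasl2 and 0.852 for Ddx58. No gene of a list of class I antigen presentation, with 18 of 28 tested, was called either way. At the 8.37% called over all tested genes, a list this short would hold few calls.

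Transporters and redox enzymes also set the lines apart. Slc38a1, a transporter of glutamine and other neutral amino acids, was at 44.2, 31.6, 53.2 and 43.3 CPM in B73 and at 0 counts in every B87 library, at least 1260-fold lower. Slc7a2, a transporter of cationic amino acids, was the reverse, at 0.399, 0.324, 0.0428 and 0.306 CPM in B73 and 42.2, 61.9, 17.4 and 7.8 CPM in B87 (6.83, SE 0.36, adjusted p = 6.76e-05). Nqo1, a quinone reductase and textbook target of NRF2, was at 2.9, 3.57, 0.643 and 0.153 CPM in B73 and 51.7, 87.8, 18.7 and 17.7 CPM in B87, without overlap (4.69, SE 0.26, adjusted p = 8.49e-05). Slc7a11, the cystine importer, was at 20.1, 36.1, 9.08 and 6.94 CPM in B73 and 83.2, 201, 21.2 and 14.9 CPM in B87, higher in each pair (1.78, SE 0.23, adjusted p = 0.00267). These were the 2 of 27 tested NRF2 targets called higher. Gsta4 was called lower (-1.22, SE 0.08, adjusted p = 2e-04), and the list as a whole had a median of -0.124.

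Other genes held in every condition were Acap1, a regulator of endosomal recycling, at 0.599, 0.108, 0.9 and 1.48 CPM in B73 and 22.9, 23.8, 34.8 and 46 CPM in B87 (5.40, SE 0.27, adjusted p = 5.82e-05). Adcy1, an adenylyl cyclase, was at 9.73, 20.9, 18.1 and 44.2 CPM in B73 and 0.22, 0.374, 0.299 and 0.459 CPM in B87 (-6.004, SE 0.19, adjusted p = 1.27e-05). Mfap3l was at 12.3, 18.7, 29.2 and 24.8 CPM in B73 and 0.351, 0.333, 0.448 and 0.306 CPM in B87 (-5.82, SE 0.19, adjusted p = 1.37e-05). In all 3 genes the libraries of the lines were separated. Eno1b (-8.88, SE 0.16) and Prl2c3 (-5.44, SE 0.11) also stood among the widest held differences, but share 80.6% and 51.7% of their 75-base stretches with Eno1 and Prl2c2, so reads of these copies may be exchanged.

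Some differences were of presence and absence. Of the called genes, 47 had at most 3 counts in each B73 library and 100 at most 3 counts in each B87 library. On the Y chromosome Ddx3y, an RNA helicase, was at 0 counts in all B73 libraries and at 138, 147, 165 and 197.5 CPM in B87, at least 4350-fold higher. Uty, a histone demethylase relative, was at 0 counts in B73 and at 52.2, 56.7, 55.7 and 76.5 CPM in B87, at least 1620-fold higher. The other Y-linked genes of the list were at or near 0 in both lines, with at most 0.051 CPM for Kdm5d and 0.0998 CPM for Eif2s3y. Xist, the RNA of the inactive X chromosome, reached 0.249 CPM at most in any library of either line. The study gives male mice as the source of its cell lines. Why Ddx3y and Uty were absent in B73, and the other listed Y-linked genes at or near 0 in both lines, was not tested.

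Imprinted genes, expressed from 1 parental copy, gave 5 calls among 24 tested of 45, all of them lower in B87, with a median of -0.342. Peg3, a paternally expressed zinc finger gene (chr7:6703892-6730431), was at 188, 98.5, 116 and 38.9 CPM in B73 and 1.71, 5.74, 0.249 and 0.816 CPM in B87, without overlap (-5.75, SE 0.56, adjusted p = 0.000839). Its neighbor Usp29 had 109 counts in B73 and 2 in B87, a ratio of 57.9 (95% interval 15.6 to 484). The remaining 3 lie together on chromosome 6. Sgce had 48 counts in B73 and 2 in B87, a ratio of 25.5 (95% interval 6.68 to 216), Ppp1r9a 65 and 3, a ratio of 23 (7.53 to 114), and Peg10 a difference of -3.84 (SE 0.72, adjusted p = 0.012). Sgce and Ppp1r9a each lost the call when 1 B73 library was left out, at -3.92 without SB505124 Smad4 on and -3.19 without TGFβ1 Smad4 off.

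The widest stretch of neighboring differences lay on chromosome 4 beside Cdkn2a (chr4:89274471-89294653), whose products are the Ink4a and Arf tumor suppressors. The genes of this region were chosen after their values were seen. Cdkn2a, its neighbor Cdkn2b and Mtap had 0 counts in all 8 libraries. Upstream, from Lurap1l to Cntln, 11 of 13 tested genes were called higher in B87 and none lower, with a median of 1.77. Mpdz, a scaffold of tight junctions, was at 43.3, 39.5, 42.6 and 38.7 CPM in B73 and 302, 421, 291 and 344 CPM in B87 (3.03, SE 0.12, adjusted p = 2.5e-05). Lurap1l was at 39.2, 46.1, 42.4 and 51.7 CPM in B73 and 291, 275, 361 and 372 CPM in B87 (2.85, SE 0.09, adjusted p = 1.27e-05), and the transcription factor gene Nfib at 105.5, 97.1, 98.7 and 93.8 CPM in B73 and 364, 391, 336 and 292 CPM in B87 (1.80, SE 0.07, adjusted p = 2.77e-05). The lines did not overlap in any of these 3 genes.

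Closer to Cdkn2a the direction turned. From Rraga to Mllt3 the median was 0.552 over 7 tested genes, of which Acer2, a ceramidase, was called (3.95, SE 0.26, adjusted p = 0.000171) and the ribosomal protein gene Rps6 (0.61, SE 0.08, adjusted p = 0.00242) was below the 2-fold rule. From Focad to Dmrta1, 5 of 6 tested genes were called lower, and Mrpl48-ps, a pseudogene, was not called (0.85, SE 0.37, adjusted p = 0.164). Focad was at 28.8, 30.9, 17.4 and 15.1 CPM in B73 and 5.58, 6.7, 4.73 and 4.28 CPM in B87 (-2.08, SE 0.13, adjusted p = 0.000138). Klhl9, a ubiquitin ligase adaptor, was at 28.1, 26.1, 26.3 and 20.4 CPM in B73 and at 0 counts in every B87 library, at least 729-fold lower. Dmrta1, a DM-domain transcription factor beyond Cdkn2a, was at 51.4, 45.7, 50.7 and 33.7 CPM in B73 and 0 counts in every B87 library, at least 1320-fold lower. Hacd4 also had 0 counts in B87, at least 24.1-fold lower than its 1.5, 1.24, 0.429 and 0.255 CPM in B73. B73 thus had counts on both sides of the 3 genes that were at 0 in both lines, and B87 had 0 counts in every gene of the table from Klhl9 to Dmrta1. DNA copy number was not measured in these libraries. By sparse whole-genome sequencing the study reports homozygous loss of Cdkn2a/b in most of its KC-shSmad4 tumor-derived lines. Whether B73 and B87 were among the lines sequenced is not given in the sources used here.

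**Figure D4:**
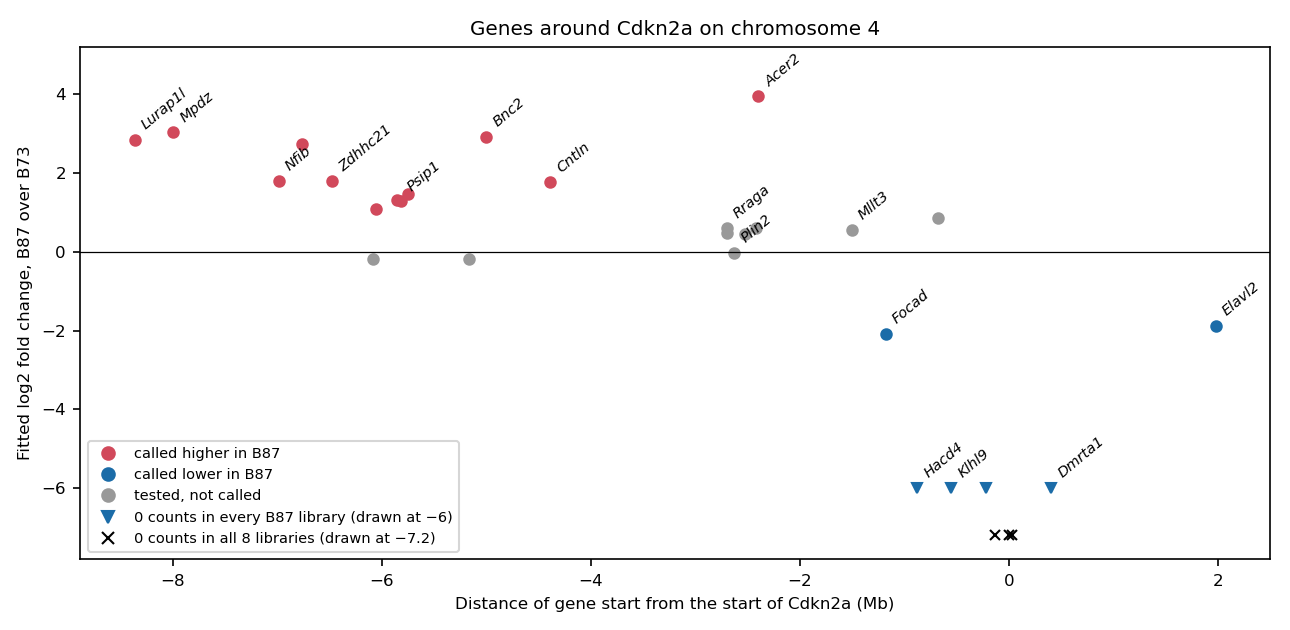
Fitted log2 fold change of B87 over B73 (vertical axis) of the tested genes around Cdkn2a, by distance from the Cdkn2a start in Mb (horizontal axis). From Lurap1l to Cntln 11 of the 13 points were called higher, with a median of 1.77 and Gm11185 and Gm12416 slightly below 0, and from Focad to Dmrta1 5 of 6 were called lower, Mrpl48-ps lying at 0.85.

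Elsewhere, runs of 4 or more neighboring tested genes called in the same direction were few. There were 13, among them the Hoxb run and those of the chromosome 4 region. Others included 5 genes higher from Ccnc to Coq3 on chromosome 4 (1.15 to 1.45), 5 lower from Znf41-ps to Zfp991 on chromosome 4 (-4.42 to -2.04), 4 lower around Ly6e, Ly6a and Ly6c1 on chromosome 15 (-4.95 to -1.29), 4 lower around Raet1e and H60b, ligands of a natural killer receptor, on chromosome 10 (-3.56 to -1.47) and 4 higher from Syt8 to Prr33 on chromosome 7 (2.17 to 5.15). Members of such families can share sequence, so reads may be divided between them.

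Over whole chromosomes the shifts were small. Chromosome 6 had the highest autosomal median, 0.201, with 73.6% of its 727 tested genes above 0. The median was positive in each condition, at 0.126, 0.276, 0.147 and 0.241. Chromosome 4 followed with 0.122 (70.5% of 862) and chromosome 5 with 0.0933 (66.2% of 949), whereas chromosome 19 had the lowest, -0.109 (30% of 474), followed by chromosome 15 with -0.0906 (32.4% of 549). In windows of 40 neighboring tested genes the middle 90% of 346 medians lay between -0.119 and 0.157. The highest was 0.833 on chromosome 4 from Rgs3 to Acer2, with 19 genes called higher and 2 lower, followed by 0.346 on chromosome 6 from Hoxa3 to Tigd2 and 0.321 on chromosome 6 from Ppp4r2 to Gm44199. The lowest were -0.21 on chromosome 1 (Cops8 to Atg4b), -0.189 on chromosome 19 (Rnaseh2c to Pygm) and -0.178 on chromosome 15 (Samm50 to Plxnb2). Each of these 6 medians kept its sign in all 4 conditions. The windows were chosen by their values, which are given without a test.

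**Figure D5:**
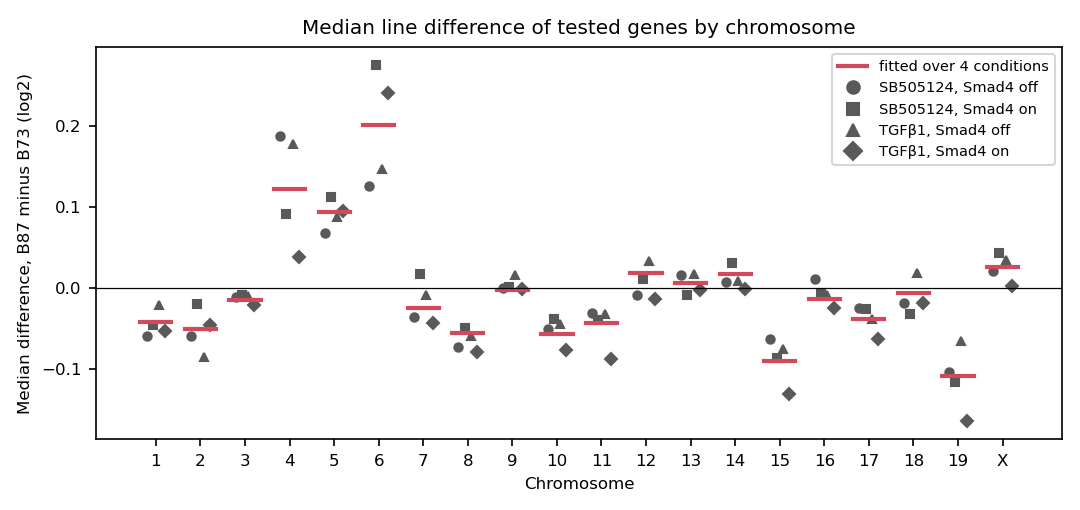
Median log2 difference of B87 minus B73 over the tested genes of each chromosome, with a line for the fitted value and points for the 4 conditions. Chromosomes 6, 4 and 5 lie above 0 and chromosomes 19 and 15 below 0 in every condition.

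Gene groups of tumor genetics and growth were read beside the 8.37% of all tested genes called either way. The lists are short, so their counts are descriptions. Of 18 PDAC driver genes 16 were tested and none was called, with a median of -0.00641. Trp53 was at 234, 216, 276 and 287 CPM in B73 and 238, 235, 283 and 239.9 CPM in B87 (-0.02, SE 0.07, adjusted p = 0.901), and Myc did not pass the test (0.20, SE 0.13, adjusted p = 0.36). Of 46 S-phase genes none was called, with a median of 0.0471 overall and 0.25, 0.23, -0.0191 and -0.272 in the 4 conditions. Of 53 G2/M genes only Psrc1 was called (1.05, SE 0.11, adjusted p = 0.00109), below the 2-fold rule at 0.981 without the TGFβ1 Smad4-on libraries. The G2/M median was -0.083, and 0.147, 0.0407, -0.163 and -0.31 in the 4 conditions. Both lists thus had medians above 0 under SB505124 and below 0 under TGFβ1. For the KLF and RUNX factors the counts were 1 higher and 2 lower of 19 tested, with a median of -0.0543. Basal-like and squamous genes gave 2 higher and 3 lower calls among 12 tested of 28, with a median of -0.144, and Trp63, the squamous master factor, was at no more than 0.541 CPM in any library. Protocadherins had 7 calls each way among 31 tested, and cytochrome P450 genes 3 higher and 5 lower among 18. Forkhead factors had 1 higher and 3 lower among 26, and SOX factors 1 higher and 3 lower among 9. Among the lists of this paragraph, shares above 8.37% were seen in the KLF and RUNX, basal-like, protocadherin, cytochrome P450, forkhead and SOX lists. Foxf1, a forkhead factor of gut mesenchyme, was at 1.2, 0.865, 2.36 and 3.16 CPM in B73 and 9.62, 15.6, 13.4 and 33.7 CPM in B87, without overlap (3.22, SE 0.25, adjusted p = 0.00032). None of 14 tested Eph receptors and ephrins was called.

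The line difference was tested for dependence on treatment and on Smad4 state. By treatment edgeR called no gene (0% of those tested), with 1198 genes at an unadjusted p under 0.05, and DESeq2 called 25. By Smad4 state 56 genes were called (0.392%), 28 with a term above 0 and 28 below. Of these, 20 were also called between the lines and 11 held. They included Lsr, where the log2 difference of B87 minus B73 was -1.66 and -1.69 with Smad4 off and -3.54 and -3.39 with Smad4 on, and Itgb4 among the adhesion genes. Prrx1, Bgn and Col5a1 widened the other way, with interaction terms of 1.66 (SE 0.19, adjusted p = 0.0329), 1.65 (SE 0.15, adjusted p = 0.0187) and 1.29 (SE 0.16, adjusted p = 0.0329). Hnf4a, which was not called between the lines, had an interaction term of -1.003 (SE 0.11, adjusted p = 0.0329). The number of genes called by Smad4 state rested on single libraries and rose to 156 without the B87 TGFβ1 Smad4-off library and to 124 without either TGFβ1 Smad4-on library. Split into sums of squares of log2 CPM over all tested genes, the line took 35.6%, the treatment 38.6%, Smad4 12.5% and the interactions of the line with treatment and with Smad4 3.53% and 3.65%. The line differences of any pair of conditions correlated across genes at r between 0.642 and 0.774, over 14301 genes that are not independent replicates.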

How the data were processed

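RNA-seq counts of 8 libraries were analysed. Per the labels and the study's methods, the authors made strand-specific libraries of poly(A) RNA, read 75 bp from a single end, checked the reads with FastQC 0.11.5, trimmed adaptors with Trimmomatic 0.36, aligned to mm10 (GRCm38) with STAR 2.5.3a and counted per gene with featureCounts 1.6.3, the versions being those of the submitters' processing notes. The deposited table holds raw counts for 53465 genes, 1 column per library. How strand and multiply matching reads were handled was not stated, which leaves near-identical copies and overlapping antisense genes uncertain.

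Lines were compared with edgeR 4.0.16 in R 4.3.3 (TMM scaling, filterByExpr, quasi-likelihood F-test) with condition as a term. Calls needed an adjusted p under 0.05 and a 2-fold difference, the study's thresholds. The study's own test was DESeq2, used here as an alternative (1.42.0). SE was taken as the fitted difference over the root of its F statistic. Differences per condition are of log2 CPM with a prior count of 2. Genes at 0 counts in a line are given as bounds against 3 counts over the group, and genes with 1 to 3 counts as ratios with an exact interval. Libraries were paired by the condition in their titles: deviations from the line means of matched libraries correlated at 0.628 to 0.793 in all 4 pairs. The script was tested on simulated counts.

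Genes were named by rule: Smad4, the 10 held genes each way whose smallest difference over the conditions was largest (mean log2 CPM of at least 1), the 5 largest differences each way among abundant genes (mean log2 CPM of at least 6), up to 3 called members of each gene list each way, and list members that define a cell type, identity or driver. List members beyond these, such as junction genes, collagens and Hox neighbors, and the region around Cdkn2a, were chosen after their values were seen. A few genes, and an allele of the model, are not reported here. All members and lists were chosen with earlier results of these data known. Sequence shared between genes was counted over 75-base stretches of GENCODE M21 transcripts. Promoter windows are from RefSeq (GRCm38.p6). Alternatives were other scaling, filters, tests, thresholds, prior counts and windows, fits without matching, fits within a treatment or Smad4 state, and leaving out libraries.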

Additional observations from a re-analysis of the deposited data

Results flagged for a closer look

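Among the 190 genes followed, 6 had a line difference that depended on Smad4 state by edgeR's quasi-likelihood test of the interaction. The term was -1.81 for Lsr (SE 0.17, adjusted p = 0.0187), -1.31 for Itgb4 (SE 0.18, adjusted p = 0.0489) and -1.003 for Hnf4a (SE 0.11, adjusted p = 0.0329), so B87 lay lower relative to B73 with Smad4 on. It was 1.66 for Prrx1 (SE 0.19, adjusted p = 0.0329), 1.65 for Bgn (SE 0.15, adjusted p = 0.0187) and 1.29 for Col5a1 (SE 0.16, adjusted p = 0.0329), so B87 lay higher with Smad4 on. The lines differ in many ways beside, and the part of each was not tested.

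In 5 of the 190 genes 1 of the 4 matched conditions gave a line difference far from the other 3. The cutoff used is passed by about 1 of 20 groups of 4 independent, normally distributed values. Here the 4 values come from different conditions, and many of the genes were chosen by these values. That rate therefore may not apply, and the 5 are listed as a description without a verdict on chance. Acap1 differed by 6.87 under SB505124 with Smad4 on, against 4.87 to 5.13 in the others, a condition where B73 was at 0.108 CPM. Cldn18 differed by 10.1 under TGFβ1 with Smad4 off, against 8.96 to 9.02, with B73 at 0.0857 CPM there. Both values rest on a B73 level under the 3-count floor. Gbp2 differed by 0.63 under SB505124 with Smad4 off, against 1.83 to 1.96. Wnt10a differed by 1.34 under TGFβ1 with Smad4 on, against 2.67 to 2.83, and its call was lost in the fit without matching (2.80, adjusted p = 0.281). Wnt7b differed by -4.38 under SB505124 with Smad4 on, against -2.07 to -1.59.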

How the results depend on the processing

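No called gene followed here changed the direction of its fitted difference in any alternative that tested it. Genes that were not called were not checked for direction. Fitting the lines with no replicate block, so without pairing by condition, gave 218 higher, 209 lower, 180 held higher and 180 held lower genes in edgeR, 426 of its 427 calls being among the 1197, and 350 higher and 379 lower in DESeq2. Among 168 called genes followed, 92 lost the call in that edgeR fit. The counts were 262, 226, 133 and 116 with at least 10 counts in every library, 1275 higher and 1385 lower with no fold rule, and 247 and 323 when tested against 2-fold itself. Within SB505124 alone 349 genes were higher, within TGFβ1 alone 356 higher and 321 lower, and within Smad4 on alone 476 were held higher over its 2 conditions. Leaving out a matched condition gave 428 to 542 higher, 472 to 565 lower, 304 to 370 held higher and 341 to 387 held lower genes, and leaving out a single library 442 to 577, 517 to 605, 311 to 389 and 354 to 406. DESeq2 with condition shared 1018 of its 1047 calls.

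Genes whose line difference depended on treatment numbered 0 in edgeR, also with any single library left out, 80 with no low-count filter and 25 in DESeq2. For Smad4 state the 56 became 399 with no filter, 30 with at least 10 counts, 105 in DESeq2 and 56 to 156 with single libraries left out. With at least 10 counts the line took 27.5% and the treatment 45.7% of the variation, and the treatment 37.6% with a prior count of 0.5. The highest window median was 1.29 in windows of 20 genes and 0.576 with at least 10 counts, and the lowest -0.335 and -0.23. Leaving the chromosome 4 region out of the counts, chosen after seeing the data, kept all 4 counts within 1.5 times. The cause of these shifts was not tested. Depth limits genes near 3 counts, whose folds are bounds or wide ratios, and 1 line per side limits every comparison to these lines.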
